A study of Mus musculus with 10 samples.

Results

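The 9 genes described here belong to the immature neuron and the neurogenic lineage and were measured by bulk RNA-seq of GFP-positive cells sorted from mouse brain: Dcx, Eomes, Neurod1, Sox11, Sox4, Igfbpl1, Calb2, Neurog2 and Tubb2b. They were chosen by name, as the rows whose gene name equals 1 of these 9 symbols, out of 55487 genes in the table. All 9 passed the filter on low counts, as did 20379 genes of the whole table. The NC-GFP group (3 libraries) came from CamKIIcre/- mice that received the virus AAV-FLEX-GFP. The cKO-GFP group (3 libraries) came from TDP-43flox/flox::CamKIIcre/- mice given the same virus. The cKO-mNLS group (4 libraries) came from TDP-43flox/flox::CamKIIcre/- mice given AAV-FLEX-TDP-43mNLS-GFP. Every group therefore carried the CamKIIcre transgene and a Cre-dependent (FLEX) virus that expresses GFP. The mice lacking floxed alleles served as the control for the deletion, and cKO-GFP as the control for the TDP-43mNLS vector. Injection was into the dentate gyrus and cells were sorted 1 month later. The ages of the mice are unstated in these sources.

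Tardbp encodes TDP-43, a nuclear protein that binds RNA and takes part in splicing and in keeping transcripts stable. mNLS is taken here only as the labels write it. The Camk2a promoter is known for activity in excitatory neurons of the forebrain, mostly after they have become postmitotic, so Cre and the FLEX virus are not directed at dividing progenitors. In the adult dentate gyrus, radial stem cells give rise to intermediate progenitors, then to neuroblasts and immature granule neurons, and finally to mature granule neurons. Transcription factors follow one another along this path: Neurog2 and Eomes in intermediate progenitors, Neurod1 from late progenitors into neurons, and the SoxC factors Sox4 and Sox11 in cells that are taking on a neuronal fate. Dcx, Tubb2b, Igfbpl1 and, for a short time, Calb2 mark the immature neuron itself. Several of these genes are also read in other cells: Eomes in T and NK lymphocytes, Sox4 in many tissues, and Calb2 in interneurons and mossy cells.

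The sorted RNA came from suspensions pooled from 3 to 4 animals in each group. The labels do not say whether the libraries of a group came from separate pools, so the p-values measure the spread between these libraries, which may be technical. Libraries held 17164162 to 29204279 estimated counts. In CPM, counts scaled to the normalized library total, the NC-GFP libraries held 121 to 143 of Tardbp itself, the cKO-GFP libraries 108 to 122 and those with TDP-43mNLS 185 to 337. It was not called in cKO-GFP against NC-GFP (log2 fold change -0.16, adjusted p = 0.745), and a count over the whole gene does not separate deleted from kept parts or the virus from the native gene. The sorted material was not purely neuronal by its markers. In NC-GFP and cKO-GFP each glial set summed below stood at more CPM than the mature neuron genes. For NC-GFP, cKO-GFP and cKO-mNLS in turn, the summed level of 12 mature neuron genes was 498 to 538, 265 to 408 and 942 to 2250 CPM. Mbp, which encodes myelin basic protein of oligodendrocytes, alone stood at 1565 to 1931, 1066 to 1848 and 915 to 1683 CPM. In the same order, the sum of 5 mature oligodendrocyte genes was 8610 to 13500, 6820 to 12400 and 3840 to 11600 CPM. That of 6 microglia genes was 4410 to 5840, 3810 to 5930 and 1560 to 3950 CPM. For 10 astrocyte genes it was 3980 to 4740, 1150 to 1790 and 1670 to 3920 CPM. The mature neuron sum in NC-GFP was mostly Prox1, Gria2 and Map2 (means 197.8, 154.5 and 135.2 CPM), picked after their values were seen. These genes stood at 158.5, 39.75 and 74.9 CPM in cKO-GFP. Slc17a7 and Rbfox3 had means of 0.402 and 1.45 CPM in NC-GFP. Over the 12 genes the median log2 fold change in cKO-GFP against NC-GFP was 0.81, with 0 called higher and 1 lower. In such bulk material fewer cells of a type and less RNA per cell cannot be told apart.

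The genes differed widely in level, which was compared in TPM, the deposited unit that accounts for transcript length. In NC-GFP, Tubb2b was highest at 12.9 ± 1.38 TPM (SD, n = 3). Sox4 followed at 3.36 ± 0.561 TPM, then Sox11 at 2.02 ± 0.711 and Dcx at 1.72 ± 0.219, and the library ranges of Sox4 and Sox11 and those of Sox11 and Dcx overlapped. Eomes (0.794 ± 0.434 TPM) and Igfbpl1 (0.761 ± 0.0951 TPM) formed the next pair, with overlapping ranges. Calb2 (0.216 ± 0.192 TPM) and Neurod1 (0.174 ± 0.0655 TPM) overlapped as well, and Neurog2 was lowest at 0.0423 ± 0.0517 TPM. The order in cKO-mNLS differed mainly by the place of Neurod1, which was the third in rank at 1.24 ± 0.616 TPM (SD, n = 4), beside Dcx at 1.22 ± 0.344 TPM. Eomes stood at 0.27 ± 0.136 TPM and Igfbpl1 at 0.295 ± 0.219 TPM there, with overlapping ranges. None of the 9 genes was above 14.3 TPM, the highest value of Tubb2b, in any library. Of them 3, Calb2, Neurog2 and Neurod1, had 4 counts or fewer in at least 1 library.

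**Figure D1:**
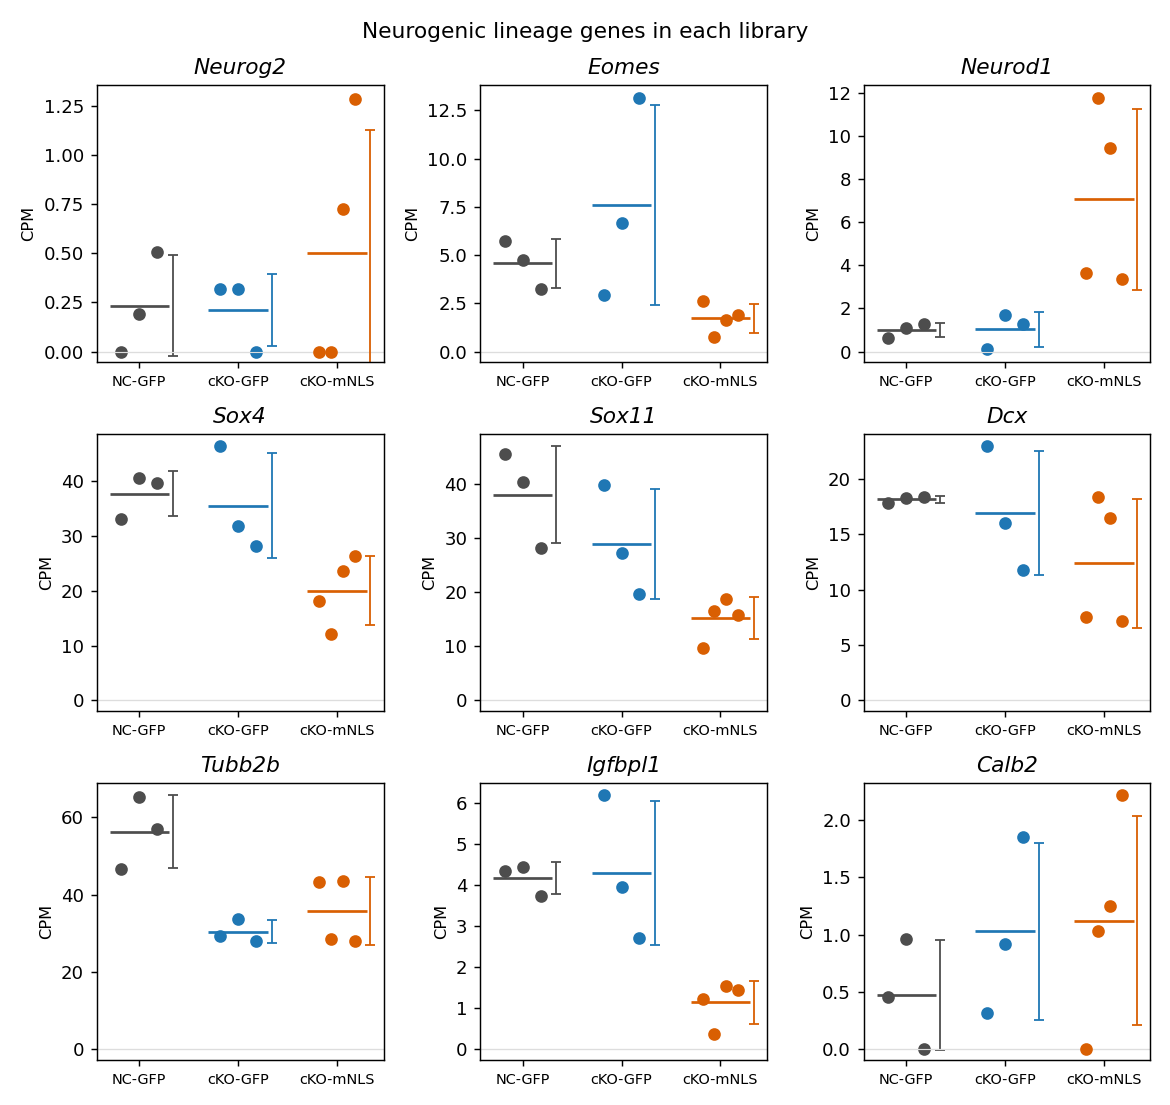
Level of each of the 9 genes in CPM (vertical axes, 1 scale per gene) in the NC-GFP, cKO-GFP and cKO-mNLS libraries. Points are libraries, and horizontal lines the group means, with bars of 1 SD to either side that end at the lower edge of the panel where they pass below it. Neurod1 sits at 3.36 to 11.8 CPM in cKO-mNLS and at 1.72 CPM or less in the other groups, while Sox11, Sox4, Igfbpl1, Eomes and Tubb2b are lower in every cKO-mNLS library than in every NC-GFP library. How many of all genes tested separate the groups in this way was not counted.

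The comparison of cKO-GFP with NC-GFP asks what deletion of floxed TDP-43 did. None of the 9 genes passed the threshold, an adjusted p under 0.05 over all 20379 genes tested in edgeR's quasi-likelihood test, where 1.63% of all genes did. At an unadjusted p under 0.05 there was 1 gene, Tubb2b, against 16.8% of all genes, and Tubb2b was also the 1 gene called by DESeq2 (7.33% of all genes) and by limma voom (7.42%). The comparison of cKO-mNLS with cKO-GFP asks what the TDP-43mNLS vector did on the deleted background. Here 5 of the 9 genes were called, against 16.1% of all genes. Neurod1 was higher (1 of 9, against 8.93% of all genes), and Eomes, Sox11, Sox4 and Igfbpl1 were lower (4 of 9, against 7.13%). Comparing cKO-mNLS with NC-GFP sets deletion and vector together against the control, and called 4 of the 9, against 11.5% of all genes. Neurod1 was higher (1 of 9, against 8.23% of all genes), and Sox11, Sox4 and Igfbpl1 were lower (3 of 9, against 3.25%). The comparisons share libraries, so they are given side by side and not as repeats of each other. The median log2 fold change of the 9 genes was -0.09, -0.45 and -0.65 in these comparisons, and that of all genes tested was 0.04, -0.01 and -0.02.

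These counts rested on few libraries, and so did those over all genes. Leaving out 1 library gave 1178 to 3629 genes called in cKO-mNLS against cKO-GFP, where all libraries gave 3273. In cKO-mNLS against NC-GFP it gave 1217 to 2603 (2341 with all libraries), and in cKO-GFP against NC-GFP 61 to 755 (333). Against cKO-GFP, the number of the 9 genes called was 4 without NC-GFP replicate 3 or cKO-mNLS replicate 4. It was 3 without either of NC-GFP replicates 1 and 2, without cKO-GFP replicate 2, or without cKO-mNLS replicate 1 or 3, it was 2 without cKO-GFP replicate 3 or cKO-mNLS replicate 2, and 1 without cKO-GFP replicate 1. Against NC-GFP, the number was 3 without cKO-GFP replicate 2, 2 without cKO-mNLS replicate 2, 1 without NC-GFP replicate 2 or 3, and 0 without NC-GFP replicate 1, where the adjusted p ran from 0.0515 for Sox11 to 0.122 for Neurod1. In cKO-GFP against NC-GFP it was 1 (Tubb2b) without cKO-mNLS replicate 2 or 4. With only the libraries of the 2 groups compared in the fit, 1 gene, Eomes, was called in cKO-mNLS against cKO-GFP (11.9% of all genes), and limma voom called 3 there (18.8%).

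**Figure D2:**
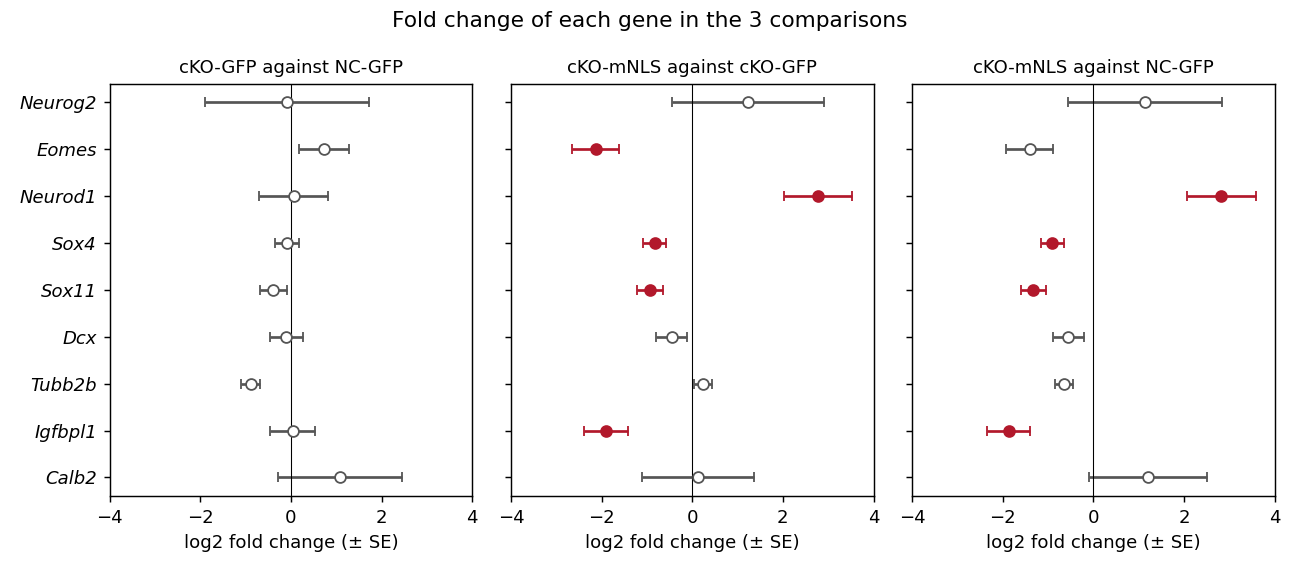
Log2 fold change of each of the 9 genes (horizontal axes) with bars of 1 SE to either side in the 3 comparisons, with filled points for genes called at an adjusted p under 0.05 and open points for the others. No point is filled in cKO-GFP against NC-GFP, 5 are filled in cKO-mNLS against cKO-GFP and 4 in cKO-mNLS against NC-GFP, and the bars of Calb2 and Neurog2 are the widest.

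Neurod1 encodes a basic helix-loop-helix factor that drives the step from progenitor to granule neuron and is kept in mature excitatory neurons (chr2:79452521-79456751, minus strand, GRCm38/mm10). Its level was 0.627, 1.07 and 1.30 CPM in the NC-GFP libraries and 0.141, 1.72 and 1.26 CPM in the cKO-GFP libraries. In the cKO-mNLS libraries it was 3.65, 11.8, 9.46 and 3.36 CPM. Every cKO-mNLS library was above every other library, and replicates 2 and 3 were the highest. The log2 fold change was 2.77 (SE 0.75, adjusted p = 0.0282) in cKO-mNLS against cKO-GFP, which is 6.80-fold higher. It was 2.82 (SE 0.756, adjusted p = 0.0328) against NC-GFP. cKO-GFP against NC-GFP gave 0.06 (SE 0.759, adjusted p = 0.983), an interval too wide to show that Neurod1 was alike in them. Against cKO-GFP the call was lost without cKO-GFP replicate 1 or 3 (adjusted p = 0.0538 and 0.0953), and also without replicate 2 or 3 of cKO-mNLS (0.0623 and 0.0601). Against NC-GFP it did not survive the removal of any 1 control library (0.122, 0.109 and 0.0926 for replicates 1, 2 and 3) or of cKO-mNLS replicate 2 or 3 (0.0798 and 0.0638). The direction held in all of these fits.

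The genes whose pattern over the 10 libraries lay nearest to that of Neurod1 were Kcnc1, a voltage-gated potassium channel subunit, and Gpr158, an orphan receptor of neurons. Their root mean square differences from Neurod1 in centred log2 CPM were 0.451 and 0.492, where a flat gene would lie at 1.64. Of 12 mature neuron genes, 11 were called higher in cKO-mNLS against cKO-GFP (median log2 fold change 3.35) and 10 against NC-GFP (median 4.26). Prox1, the granule neuron homeobox factor, was called in neither (0.43, adjusted p = 0.321, and 0.11, adjusted p = 0.854), and Gria2, an AMPA receptor subunit, was not called against NC-GFP (0.51, adjusted p = 0.347); both were singled out after their values were seen. Stx1a, a presynaptic fusion protein, and Calb1, a calcium buffer of mature granule neurons, had the smallest p in them. Their summed level in the cKO-mNLS libraries was 1040, 2250, 1730 and 942 CPM, so the libraries stood in the same order for Neurod1 and for this sum. Whether Neurod1 came from immature or from mature neurons was not tested.

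Eomes (Tbr2) encodes the T-box factor of intermediate progenitors (chr9:118478212-118486132, plus strand), and the same factor works in cytotoxic T and NK cells. It stood at 5.72, 4.75 and 3.22 CPM in NC-GFP and at 2.92, 6.66 and 13.2 CPM in cKO-GFP. In cKO-mNLS it was 2.61, 0.749, 1.61 and 1.90 CPM. The cKO-mNLS libraries were all below the other 6, and cKO-GFP replicate 3 was far above the rest of its group. cKO-mNLS against cKO-GFP gave -2.13 (SE 0.522, adjusted p = 0.0181). Against NC-GFP the value was -1.41 (SE 0.52, adjusted p = 0.111) and did not pass. These groups did not overlap, but the share of all genes tested that separate them was not counted. cKO-GFP against NC-GFP gave 0.73 (SE 0.552, adjusted p = 0.549). The call against cKO-GFP was lost without cKO-GFP replicate 3 (-1.42, adjusted p = 0.154) and with limma voom (-1.74, adjusted p = 0.113).

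Lymphocyte genes were set beside Eomes library by library. For 12 T or NK cell genes the summed level in NC-GFP was 222, 201 and 151 CPM, that in cKO-GFP was 301, 338 and 852 CPM, and that in cKO-mNLS was 216, 246, 135 and 153 CPM, so cKO-GFP replicate 3 was the highest library for this sum as well. In cKO-mNLS the orders differed: replicate 2 had the highest sum and the lowest Eomes, and the sums overlapped those of NC-GFP, where Eomes did not. Ccl5 alone had means of 110, 244.2 and 140.6 CPM in NC-GFP, cKO-GFP and cKO-mNLS, most of the sum in the first and last. Picked after their values were seen, Cd2 and Gzmb were lower in every cKO-mNLS library than in every NC-GFP library. Cd2 was at most 7.649 CPM against at least 10.79, and Gzmb at most 3.503 against at least 5.423. Cd3d, Cd3e, Cd3g, Cd8a and Tbx21 overlapped between these groups. Of these 12 genes, 7 were called lower in cKO-mNLS against cKO-GFP (median -2.39) and 3 against NC-GFP. In cKO-GFP against NC-GFP none was called in edgeR, 7 were higher at an unadjusted p under 0.05, and DESeq2 called 2 and limma voom 0. Cd8a, a coreceptor of cytotoxic T cells, went from 6.44 to 7.27 CPM in NC-GFP to 17.0, 58.5 and 85.5 CPM in cKO-GFP, and lay at 17.97, 11.9, 1.65 and 2.40 CPM in cKO-mNLS. Ncr1, the defining receptor of NK cells, was at 0.773 CPM or less in every library. The 2 genes nearest to Eomes were Foxp3 (difference 0.407) and Irf4 (0.448), both known transcription factors of lymphocytes, where a flat gene would lie at 1.08. For 11 intermediate progenitor genes the sum was 239, 218 and 231 CPM in NC-GFP and 232, 296 and 327 CPM in cKO-GFP. In cKO-mNLS it was 135, 164, 148 and 187 CPM. This sum was also highest in cKO-GFP replicate 3, and its cKO-mNLS values were all below NC-GFP. Within cKO-mNLS, replicate 1 had its lowest value and the highest Eomes. Btg2 alone had means of 190, 239 and 106 CPM in the NC-GFP, cKO-GFP and cKO-mNLS groups. The part of lymphocytes or of intermediate progenitors in the Eomes value was not tested.

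**Figure D3:**
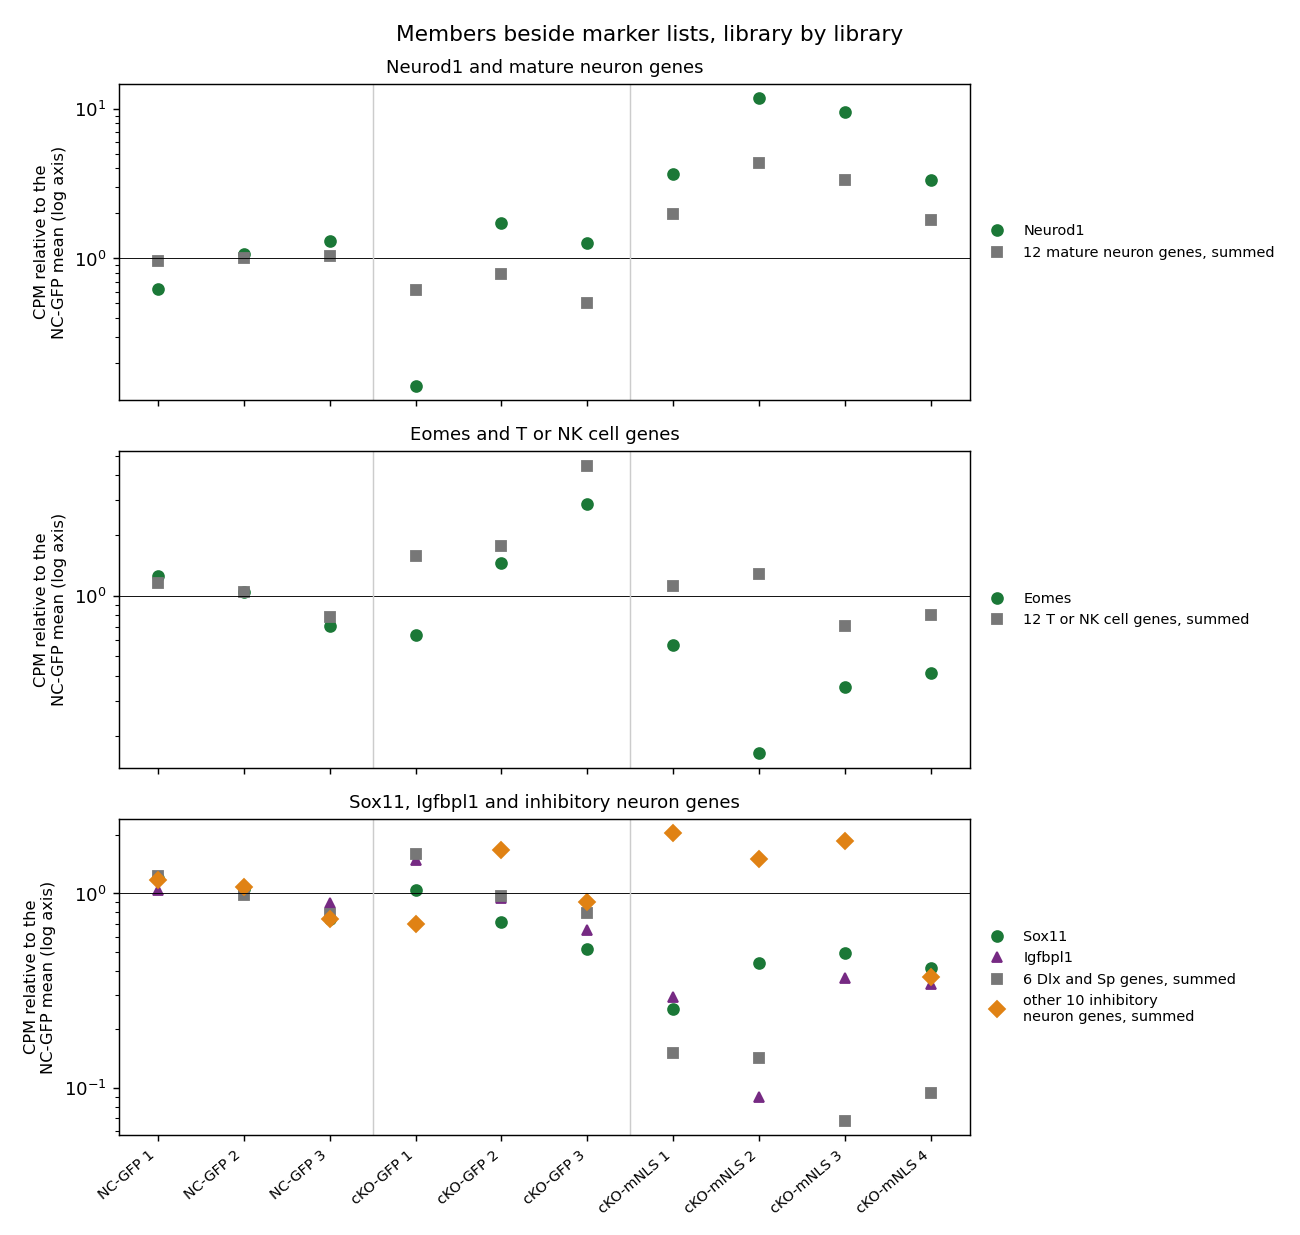
CPM of Neurod1, Eomes, Sox11 and Igfbpl1 and the summed CPM of marker genes, each divided by its NC-GFP mean (vertical axes, logarithmic), in the 10 libraries. Neurod1 and the mature neuron genes are above their NC-GFP mean in all 4 cKO-mNLS libraries, Eomes and the T or NK cell genes are both highest in cKO-GFP replicate 3, and Sox11, Igfbpl1 and the Dlx and Sp genes (picked after their values were seen) are below their NC-GFP means in all 4 cKO-mNLS libraries, while the other 10 inhibitory neuron genes are above theirs in 3 of the 4.

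Sox11 and Sox4 are the SoxC factors that open the neuronal programme in new neurons. Sox11 is a single-exon gene (chr12:27334264-27342574, minus strand), as is Sox4 (chr13:28948919-28953713, minus strand). The pair was called lower together in both comparisons with cKO-mNLS, so the 250 bases upstream of each RefSeq start are shown (RefSeq, GRCm38.p6, at chr12:27342719-27342968 and chr13:28953700-28953949, minus strand, 5′ to 3′). RefSeq windows were found for 6 of the 9 genes (Dcx, Eomes, Neurod1, Sox11, Sox4 and Neurog2). Capitals mark each match to CANNTG, the E-box read by basic helix-loop-helix factors such as Neurod1 and Neurog2, which reads alike on both strands.
Sox11: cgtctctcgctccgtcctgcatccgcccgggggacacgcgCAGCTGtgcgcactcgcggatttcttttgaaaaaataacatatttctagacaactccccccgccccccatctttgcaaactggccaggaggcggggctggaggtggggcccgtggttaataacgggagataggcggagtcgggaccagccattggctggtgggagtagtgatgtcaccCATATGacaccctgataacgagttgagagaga
Sox4: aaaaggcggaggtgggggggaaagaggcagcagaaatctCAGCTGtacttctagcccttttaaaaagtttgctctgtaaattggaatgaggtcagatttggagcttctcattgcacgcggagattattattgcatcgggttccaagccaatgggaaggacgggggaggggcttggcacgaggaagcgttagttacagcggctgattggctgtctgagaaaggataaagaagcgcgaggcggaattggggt

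Both windows hold CAGCTG, a form of the E-box found in 13% of the 32817 RefSeq windows of this length, while 66.2% of them hold CANNTG in some form. The Sox11 window holds 2 matches and the Sox4 window 1. The form CAGATG, searched on both strands and usually given for Neurod and Neurog factors, is in 14.5% of all windows and in neither of these. A match of letters is a description of the window and no evidence of binding.

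Sox11 stood at 45.5, 40.3 and 28.2 CPM in NC-GFP, at 39.8, 27.3 and 19.7 CPM in the cKO-GFP libraries, and at 9.63, 16.6, 18.8 and 15.8 CPM in cKO-mNLS. All cKO-mNLS libraries were below all others, and the first 2 groups overlapped. Its log2 fold change was -0.93 (SE 0.277, adjusted p = 0.0411) in cKO-mNLS against cKO-GFP and -1.32 (SE 0.278, adjusted p = 0.00973) against NC-GFP, with -0.39 (SE 0.297, adjusted p = 0.547) in cKO-GFP against NC-GFP. Against NC-GFP the call depended on control replicate 1 (adjusted p = 0.0515 when it was left out). Against cKO-GFP it held when replicate 3 of any 1 group was left out, and it was lost without any other library. There the adjusted p ran from 0.0656 to 0.261, the highest without cKO-GFP replicate 1, where the log2 fold change was -0.57, and limma voom gave 0.0527.

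Sox4 behaved like Sox11 with a smaller margin. It stood at 33.0, 40.5 and 39.7 CPM in NC-GFP, at 46.3, 31.9 and 28.2 CPM in the cKO-GFP libraries, and at 18.04, 12.2, 23.6 and 26.3 CPM in cKO-mNLS. The cKO-mNLS libraries were all below the others, the highest of them close to the lowest cKO-GFP library. The log2 fold change was -0.82 (SE 0.253, adjusted p = 0.0465) in cKO-mNLS against cKO-GFP, -0.91 (SE 0.253, adjusted p = 0.0381) against NC-GFP and -0.09 (SE 0.272, adjusted p = 0.909) in cKO-GFP against NC-GFP. Against cKO-GFP the call held only without cKO-mNLS replicate 4. Without any other library the adjusted p lay between 0.0576 and 0.271, the highest without cKO-GFP replicate 1, where the log2 fold change was -0.52. Against NC-GFP it was lost on leaving out any 1 control library (0.0725, 0.135 and 0.127 for replicates 1, 2 and 3), cKO-GFP replicate 2 (0.0502) or cKO-mNLS replicate 1 or 2 (0.0811 and 0.0633). Sox12, the other SoxC gene, was not called in any comparison. The nearest genes in pattern were Myc (difference 0.115) and Pde3b (0.141) for Sox4, and Acy1 (0.301) and Pyroxd2 (0.302) for Sox11. Myc encodes a growth-promoting transcription factor and Pde3b a cyclic nucleotide phosphodiesterase.

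Igfbpl1, an insulin-like growth factor binding protein relative found in neuroblasts (chr4:45809468-45826923, minus strand), fell further than Sox11 and Sox4 and less far than Eomes in cKO-mNLS against cKO-GFP. Its level was 4.35, 4.44 and 3.73 CPM in NC-GFP and 6.19, 3.95 and 2.72 CPM in cKO-GFP. In cKO-mNLS it was 1.22, 0.375, 1.53 and 1.43 CPM, and no cKO-mNLS library reached any library of the other groups. The log2 fold change was -1.90 (SE 0.476, adjusted p = 0.0198) against cKO-GFP and -1.87 (SE 0.477, adjusted p = 0.0265) against NC-GFP, and 0.04 (SE 0.501, adjusted p = 0.982) in cKO-GFP against NC-GFP. The call against cKO-GFP was lost without cKO-GFP replicate 1 (-1.48, adjusted p = 0.12). That against NC-GFP was lost without any 1 NC-GFP library (0.0827, 0.0913 and 0.0688 without replicates 1, 2 and 3). Its nearest genes were Cdca7 (difference 0.332), which is regulated with the cell cycle, and the histone gene H2ac10 (0.377).

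Some genes of other cell types were lower in the same comparisons as Sox11, Sox4 and Igfbpl1. Among the inhibitory neuron list, which covers newborn interneurons as well, 5 of 13 genes tested were lower in cKO-mNLS against cKO-GFP (Dlx1, Dlx2, Dlx5, Dlx6 and Sp9) and 4 against NC-GFP (Dlx1, Dlx2, Sp8 and Sp9). Dlx1, a homeobox factor of the interneuron lineage, changed by -3.31 (SE 0.426, adjusted p = 0.00167) and -3.10. The summed level of the 6 Dlx and Sp genes, a subset singled out after their values were seen and given no test, was 24.4, 19.4 and 15.4 CPM in NC-GFP and 31.4, 19.2 and 15.6 in the cKO-GFP libraries, and 2.99, 2.81, 1.33 and 1.86 in cKO-mNLS. The other 10 genes of the inhibitory list went differently: they summed to 16.4, 15 and 10.3 CPM in NC-GFP, to 9.63, 23.3 and 12.5 in the cKO-GFP libraries, and to 28.4, 21, 25.8 and 5.18 in cKO-mNLS, where replicates 1 to 3 were above every NC-GFP library and replicate 4 below all. Among them Gad1, which makes the transmitter GABA, was not called against cKO-GFP (0.51, adjusted p = 0.651) or NC-GFP (0.65, adjusted p = 0.599). Vip and Sst, each a marker of some mature interneurons, were at most 0.0468 and 0.161 CPM in any library. Others of these 10 genes reached more: Adarb2, Pvalb and Slc32a1 up to 8.451, 5.285 and 2.92 CPM in cKO-mNLS, and Npy up to 2.194 CPM in cKO-GFP. In the cKO-GFP group, replicate 1 was the highest and replicate 3 the lowest for Sox11, Sox4, Igfbpl1, Dcx and the sum of the 6 Dlx and Sp genes. The order was not particular to these. It also held for the summed mature oligodendrocyte genes (12380, 10320 and 6815 CPM) and early oligodendrocyte lineage genes (1057, 969 and 727 CPM). The summed neuroblast genes (1536, 1465 and 1205 CPM) had it too, while the remaining lists and the other 10 inhibitory genes had other orders. Microglial genes were lower too, 4 of 6 in either comparison (Tmem119 by -1.35 and -1.83), and of 9 cell division genes 5 were lower against cKO-GFP and 1 against NC-GFP. The part of these cells in the values of Sox11, Sox4 and Igfbpl1 was not tested.

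Dcx encodes doublecortin, the microtubule-associated protein most used to mark neuroblasts and immature neurons (chrX:143855842-143933311, minus strand). It stood at 17.8, 18.3 and 18.4 CPM in NC-GFP, at 23.0, 16.0 and 11.8 CPM in the cKO-GFP libraries and at 7.54, 18.4, 16.5 and 7.15 CPM in cKO-mNLS. The NC-GFP libraries were close together. The cKO-mNLS libraries split into a pair near the NC-GFP level and a pair at well under it, with no overlap between the pairs. No comparison was called: -0.10 (SE 0.369, adjusted p = 0.924), -0.45 (SE 0.344, adjusted p = 0.422) and -0.56 (SE 0.344, adjusted p = 0.36) in cKO-GFP against NC-GFP, cKO-mNLS against cKO-GFP and cKO-mNLS against NC-GFP. The 95% interval against NC-GFP ran from -1.31 to 0.20, so it held both 0 and a fall as large as that of Sox4 (-0.91). In cKO-mNLS the libraries stood in the same order for Dcx as for Neurod1 and the mature neuron genes, replicate 2 first and replicate 4 last. Dpysl3, a collapsin response mediator of growing axons, was nearest in pattern (difference 0.28, where a flat gene would lie at 0.54), followed by B4galt3 (0.285). The Dcx relative Dclk1, which is also expressed in mature neurons, did change: it was lower in cKO-GFP against NC-GFP (-1.71, adjusted p = 0.00821) and higher in cKO-mNLS against cKO-GFP (2.10). Dclk2 was not called in any comparison.

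Tubb2b, which encodes the β-tubulin isotype of growing neurites, had the smallest p of the 9 genes in cKO-GFP against NC-GFP (chr13:34126748-34130466, minus strand). It stood at 46.6, 65.4 and 57.1 CPM in NC-GFP, at 29.4, 33.8 and 28.1 CPM in the cKO-GFP libraries and at 43.4, 28.4, 43.5 and 27.9 CPM in cKO-mNLS. The NC-GFP libraries were above all 7 others. The log2 fold change was -0.89 (SE 0.213, adjusted p = 0.0639) in cKO-GFP against NC-GFP, -0.65 (SE 0.196, adjusted p = 0.0521) in cKO-mNLS against NC-GFP and 0.23 (SE 0.199, adjusted p = 0.48) in cKO-mNLS against cKO-GFP, so none passed. DESeq2 and limma voom called it lower in cKO-GFP against NC-GFP (adjusted p = 0.00449 and 0.0102) and in cKO-mNLS against NC-GFP (0.0275 and 0.0254). In edgeR it passed in the former without cKO-mNLS replicate 2 or 4 (0.0464 and 0.0443), and in the latter without cKO-mNLS replicate 1 or 3 (0.0378 and 0.0393). Pitpnc1 was among the genes nearest to it in pattern (difference 0.124).

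The value of Tubb2b is uncertain because its neighbour Tubb2a, also on chromosome 13, is nearly the same gene. Their longest open reading frames have 1338 bases each, of which 47 differ (96.5% identity), and they share 1 run of 551 identical bases, longer than a short read. A stretch in which they can be told apart is shown for this reason, bases 121 to 240 of the open reading frame, with the 16 bases that differ in capitals.
Tubb2a: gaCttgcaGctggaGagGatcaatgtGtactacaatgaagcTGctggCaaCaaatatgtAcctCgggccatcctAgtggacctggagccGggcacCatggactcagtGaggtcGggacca
Tubb2b: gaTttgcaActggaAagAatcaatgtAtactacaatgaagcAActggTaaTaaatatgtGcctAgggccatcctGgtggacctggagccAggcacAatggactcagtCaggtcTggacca

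Tubb2a stood at 32.1, 46.4 and 39.1 CPM in NC-GFP, at 24.8, 24.7 and 27.9 in the cKO-GFP libraries and at 52.1, 76.98, 57.6 and 40 in cKO-mNLS. It was higher in cKO-mNLS against cKO-GFP (1.14, SE 0.213, adjusted p = 0.00568), where Tubb2b was not. The share of Tubb2b in the counts of both genes was between 58.5% and 59.3% in NC-GFP libraries, between 50.2% and 57.8% in cKO-GFP libraries and between 27% and 45.4% in cKO-mNLS libraries, with no overlap between groups. With the counts of both genes added, an alternative chosen after seeing the data, cKO-mNLS against cKO-GFP gave 0.72 (adjusted p = 0.016), cKO-GFP against NC-GFP -0.76 (adjusted p = 0.0611) and cKO-mNLS against NC-GFP -0.05 (adjusted p = 0.904). How reads that fit both genes were assigned is unstated in these sources. The estimated counts of Tubb2b (606.82 to 1706.83) were not whole in any library, while those of the other members were whole in all.

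Calb2 encodes calretinin, a calcium buffer of early postmitotic granule neurons, mossy cells and some interneurons (chr8:110137502-110168210, minus strand). It lay at 0.46, 0.958 and 0 CPM in NC-GFP, 0.316, 0.918 and 1.85 CPM in the cKO-GFP libraries, and 0, 1.03, 1.25 and 2.22 CPM in cKO-mNLS. Neurog2, a proneural factor of progenitors (chr3:127633135-127635631, plus strand), lay at 0, 0.192 and 0.508 CPM, at 0.316, 0.319 and 0 CPM, and at 0, 0, 0.724 and 1.29 CPM. All groups overlapped for both. No library held more than 62 counts of Calb2 or 36 of Neurog2, and libraries of 1 group differed widely. The log2 fold changes had standard errors of 1.24 to 1.36 and 1.67 to 1.81, so a change was not detectable in these libraries unless it was very large. Of 2 mossy cell genes tested, Csf2rb2 was lower in cKO-mNLS against cKO-GFP (-1.43) and Calcrl was not called (0.005, adjusted p = 0.996). Of 3 Cajal-Retzius cell genes tested, Trp73 was higher in cKO-mNLS against NC-GFP (3.36, adjusted p = 0.00949), while Reln and Ndnf were not called.

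Further genes of the lineage, on lists chosen with earlier results of these data known, did not move as a block. Of 13 stem cell genes tested, 1 was called in each comparison: Pax6 was lower in cKO-GFP against NC-GFP (-1.18, adjusted p = 0.0443), Nes, an intermediate filament of stem cells, higher in cKO-mNLS against cKO-GFP (0.92, adjusted p = 0.0419), and Sox2 lower in cKO-mNLS against NC-GFP (-1.03, adjusted p = 0.0205). The medians of this list were -0.21, -0.14 and -0.40. Of 9 intermediate progenitor genes tested, Tbr1 was higher (3.20, adjusted p = 0.0276) and Btg2, an antiproliferative factor, lower (-1.17, adjusted p = 0.00248) in cKO-mNLS against cKO-GFP. Tbr1, a T-box factor that follows Eomes and stays on in mature excitatory neurons, reached at most 1.55 CPM among NC-GFP libraries and 2.55 among cKO-GFP libraries, and at least 8.17 in those with TDP-43mNLS. Against NC-GFP, Tbr1 and Gadd45g were higher and Btg2 lower. In cKO-GFP against NC-GFP no intermediate progenitor gene was called in edgeR, DESeq2 or limma voom, and 1 passed an unadjusted p under 0.05.

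Of 32 neuroblast and immature neuron genes outside the 9, 1 was higher (Tubb3, 1.44, adjusted p = 0.0299) and 1 lower (Dclk1) in cKO-GFP against NC-GFP. In cKO-mNLS against cKO-GFP 11 were higher and none lower, and against NC-GFP 10 were higher and none lower, with list medians of 0.32 and 0.46. Among those with the smallest p were Dclk1 and Neurod2 (4.44) against cKO-GFP, and Neurod2 (4.82), Tubb3 (1.68) and the growth cone protein gene Gap43 (5.01) against NC-GFP. Neurod2, Tubb3 and Gap43 are read in mature neurons as well. Neurod1 and Neurod2 thus rose, while Sox4, Sox11 and Igfbpl1 fell and Dcx was not called, in the same comparison of cKO-mNLS with cKO-GFP.

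Among the 9 genes themselves, patterns over the 10 libraries were closest for Sox11 and Sox4 (difference 0.429 in centred log2 CPM) and for Dcx and Sox11 (0.438), and farthest apart for Igfbpl1 and Neurod1 (2.65). Markers of other cells differed between groups at the same time. Astrocyte genes were lower in cKO-GFP against NC-GFP (6 of 10, median -1.55) and in cKO-mNLS against NC-GFP (3 of 10). Ttr, the choroid plexus marker, was higher in cKO-mNLS against cKO-GFP (2.15) and NC-GFP (4.20). No mature oligodendrocyte gene (of 5) was called in any comparison by edgeR, DESeq2 or limma voom, and 0 passed an unadjusted p under 0.05. Of 5 endothelial and mural genes edgeR called none, 1 passed an unadjusted p under 0.05 in each comparison, and DESeq2 and limma voom called 1 in cKO-GFP against NC-GFP and 0 in the others. The part of these cells in the levels of the 9 genes was not tested.

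**Figure D4:**
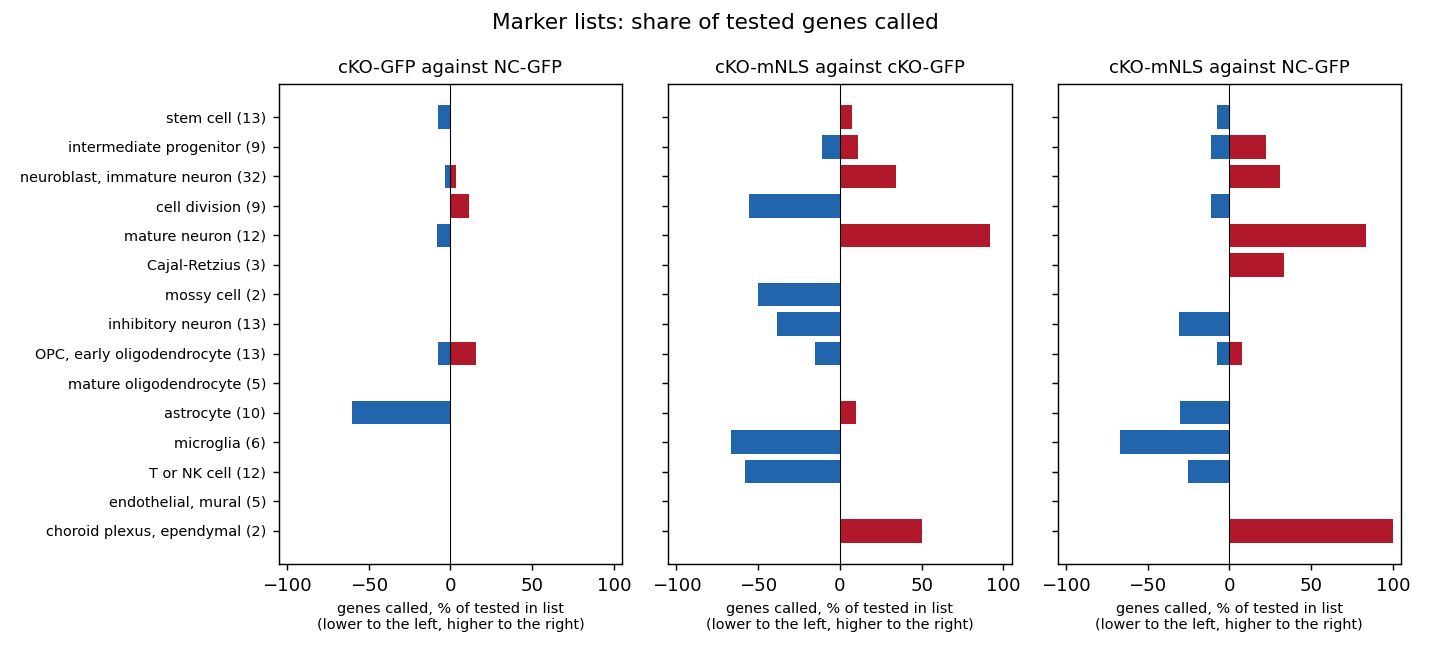
Share of each list's tested genes (number in brackets) called at an adjusted p under 0.05, with lower genes to the left and higher genes to the right, in the 3 comparisons. Mature neuron genes stand at 11 of 12 and 10 of 12 higher in the comparisons with cKO-mNLS, while T or NK cell genes (7 of 12) and microglia genes (4 of 6) are lower in cKO-mNLS against cKO-GFP.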

How the data were processed

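Per the labels' protocols, RNA of sorted cells was made into libraries with a SMART-Seq Stranded kit. Per the submitters' processing notes, DRAGEN and the build GRCm38/mm10 were used. For the aligner version, annotation, strand setting and reads that fit several genes, the answer is: not given in the sources used here. The authors deposited 1 table with estimated counts (5.84% of values are not whole) and TPM per gene and library.

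Estimated counts were rounded and tested with edgeR 4.0.16 (R 4.3.3): filterByExpr, TMM scaling, a quasi-likelihood fit to all 3 groups (residual df 7), and Benjamini-Hochberg adjustment over the 20379 genes tested. CPM use TMM-scaled totals, and TPM were used as deposited. The filter kept at least 99.83% of the counts of every library. The code was tested on simulated data. Alternatives were DESeq2 1.42.0, voom in limma 3.58.1, other filters, a replicate block and leaving out each library. Estimated counts include amplified copies, so depth sets counting error only.

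The members and lists were chosen with earlier results of these data known. Genes named were the members, Tardbp, relatives (Tubb2a, Sox12, Dclk1, Dclk2), the 2 tested genes of at least 5 CPM nearest each member, defining markers of other cells, and, per list and comparison, the called gene of smallest p (up to 3 for the lineage lists). The genes nearest Calb2 and Neurog2, at the least distances of 0.858 to 1.13, are n-R5s106, Tnfsfm13, Olfr111 and Fcrls. A few genes that this rule names are not reported here.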

Additional observations from a re-analysis of the deposited data

Results flagged for a closer look

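Of 73 genes and summed lists looked at in the 4 cKO-mNLS libraries, 4 had 1 library far from the other 3, by the gap to its nearest neighbour as a share of the group's range. Chance flags about 1 in 20 such groups. The summed level of the 9 genes was 86, 89.5, 117 and 87.4 CPM in replicates 1 to 4, with replicate 3 apart (gap 0.889 of the range). Top2a, a topoisomerase of dividing cells, stood at 15.6, 7.45, 6.4 and 6.22 CPM, with replicate 1 apart (0.87). Irf4, 1 of the genes nearest to Eomes, stood at 12.8, 3.46, 3.62 and 4.61 CPM, and again replicate 1 was apart (0.878). Cdca7, nearest to Igfbpl1, stood at 2.71, 1.03, 2.98 and 2.9 CPM, with replicate 2 apart (0.863), the library that was also lowest for Igfbpl1.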

How the results depend on the processing

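No called fold change turned its direction under any alternative run. Of the log2 fold changes of single members under the alternatives, 385 kept their side of the threshold, 49 no longer passed and 11, all of Tubb2b, newly passed. Only a called member could lose its call, and most of the 385 were of members not called in the main run. Of 10 fits without 1 library, cKO-mNLS against cKO-GFP kept Eomes, Neurod1, Sox11, Sox4 and Igfbpl1 called in 9, 6, 3, 1 and 9. Against NC-GFP, Neurod1, Sox11, Sox4 and Igfbpl1 kept the call in 5, 9, 4 and 7 of the 10. In cKO-GFP against NC-GFP, the main 333 genes called became 1376 with DESeq2, 1512 with limma voom, 754 with only the compared groups and 176 with a replicate block, and the members called went from 0 to 1 (Tubb2b) with DESeq2, limma voom, no filter and only the compared groups. In cKO-mNLS against cKO-GFP, the 5 members called became 3 with limma voom (Eomes and Sox11 lost), 2 with the replicate block (Eomes, Sox11 and Igfbpl1 lost) and 1 with only the compared groups. In cKO-mNLS against NC-GFP, the 4 members called became 2 with the replicate block, and the 2341 genes became 3566 with DESeq2. Leaving out 1 library gave 61 to 755, 1178 to 3629 and 1217 to 2603 genes called, and 0 to 1, 1 to 4 and 0 to 4 members. The cause of these shifts was not tested. The replicate numbers of the labels did not pair libraries: 0 of 9 same-number correlations were over 0.1 (-0.145 to 0.06), and in 7 of 18 checks a library correlated best with its own number in another group. Calb2 and Neurog2 had no value under the stricter filter (at least 1 CPM in at least 6 libraries). Counts of Calb2, Neurog2 and Neurod1 are few and spread between the libraries of a group, which limits their fold changes.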
